A study of Rattus norvegicus with 10 samples.

Results

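Genes of T, B and natural killer (NK) lymphocytes were followed through heat acclimation and its loss in rat left ventricle. A list of 41 lymphocyte genes was taken, and 36 of them were measured, each by the brightest probe set annotated with that symbol alone, out of 14324 genes in the table. Icos, Cd79a, Pax5 and Il2rb had no such probe set here, and Cd96 shared its probe set with Plcxd2. Each of 10 expression arrays held RNA from the left ventricles of a separate pool of 5 Sabra rats, with 2 pools in each of 5 groups. The controls were untreated and 1 month old. All rats were 3 weeks old when the experiments began. The AC2d group, also 1 month old, had been kept at 34 °C for 2 days, and the AC30 group, 2 months old, for 30 days. Deacclimated rats (DeAC) spent 30 days in the heat and the next 30 at 24 °C. The reacclimated group (ReAC) had a further 2 days at 34 °C after that, and both were 3 months old. Heat history and age therefore cannot be told apart in any comparison with control except that of AC2d. They cannot be told apart either in DeAC against AC30 or in AC30 against AC2d, whereas ReAC against DeAC was matched for labelled age.

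T cells recognise antigen through a receptor whose signal is carried into the cell by the CD3 chains and CD247, with CD4 or CD8 as coreceptor and CD28 as costimulator. The kinases Lck and Zap70 and the adaptor Lat pass the signal on. B cells signal through CD79 chains, and NK cells and cytotoxic T cells kill with perforin and granzymes. In the heart such cells are a small minority, resident in the tissue or carried in its blood. In RNA from whole tissue, fewer cells of a type and less RNA per cell cannot be told apart.

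Heart muscle was checked on 8 genes, whose mean log2 signal lay between 12.92 and 13.01 in every pool. This check was of heart muscle in general and did not test ventricle against atrium. The atrial list was uneven on the log2 scale, averaging 11.13 and 8.91 in control, 11.43 and 11.52 in AC2d, and 12.03 and 11.87 in AC30. It averaged 6.51 and 6.50 in DeAC and 10.53 and 10.56 in ReAC. Control replicate 1 had the highest mean for 7 fat genes (6.72, against 5.29 in control replicate 2). Of the 36 lymphocyte genes, 27 lay among the 40% of genes with the lowest signal, and at such levels a fold change on an array tends to be understated. Changes below are log2 differences ± standard error from a linear model (limma, n = 2 pools per group, 1 spread per gene shared over all 10 arrays). A gene passed at a Benjamini-Hochberg adjusted p under 0.05 over all 14324 genes.

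The clearest pattern was a higher level of T cell and NK cell genes in reacclimated hearts than in control. Of the 36 genes, 10 rose and 0 fell in ReAC against control, or 27.8%, where 5.63% of all genes rose and 5.28% fell (10.9% in either direction). These were the CD3 chain genes Cd3e and Cd3g, the T cell surface genes Cd2, Cd4, Cd8a and Cd28, the NK and cytotoxic genes Klrk1, Nkg7 and Prf1, and the activation marker Cd69. The median change over the 36 genes was 0.22, beside -0.01 over all genes, and 31 of the 36 changes were above 0, as were 48.4% of those of all genes. Both ReAC pools lay above both control pools for 23 genes, and this was so for 26.7% of all genes. They lay below for 4 (Cd5, Thy1, Cd79b and Gata3), beside 28.3% of all genes. The count of 10 depended on the number of ReAC pools. It was 4 without ReAC replicate 1 and 1 without ReAC replicate 2, where 4.73% and 4.64% of all genes passed in either direction, and Cd3g passed in each of these fits. In the same comparison 11 of 14 macrophage genes rose and 4 of 5 erythroid genes fell, and their part in the lymphocyte values was not tested.

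**Figure D1:**
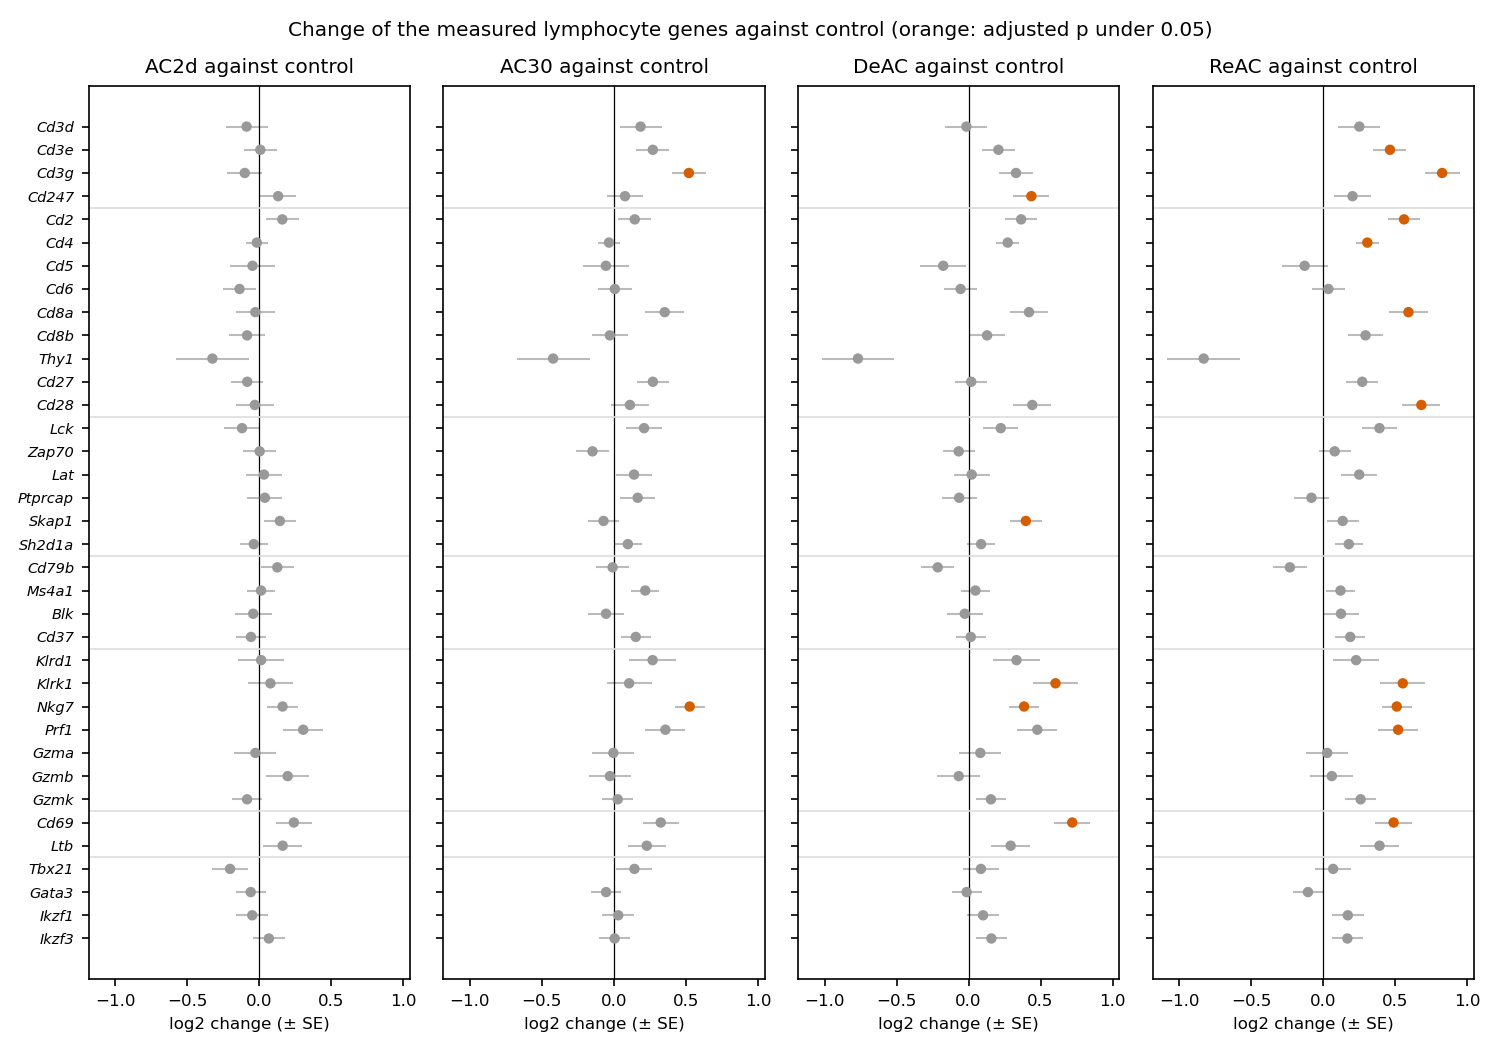
Log2 change against control (x axis, ± standard error) of the 36 measured lymphocyte genes (rows, grouped by role, with grey lines between the roles) in AC2d, AC30, DeAC and ReAC. Orange points passed at an adjusted p under 0.05, which held for 0, 2, 5 and 10 genes along these stages.

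The share of lymphocyte genes that rose was larger at the later stages. After 2 days of heat 0 of 36 passed in limma, where 0.663% of all genes rose and 1.86% fell. At an unadjusted p under 0.05 the counts there were 1 above control and 0 below it, beside 4.98% and 8.72% of all genes. After 30 days of heat 2 rose (5.56%, beside 3.57% of all genes; 8 lay above control at an unadjusted p under 0.05, beside 8.89% of all genes), and in DeAC 5 rose (13.9%, beside 4.45%). None of the 36 fell in either comparison, where 4.96% and 3.77% of all genes fell. All 6 measured atrial genes rose in AC30 against control, and their part in the lymphocyte values was not tested. These comparisons share the control pools and their error. Over the 5 groups together, 11 of 36 genes differed by the moderated F test (30.6%, beside 22.2% of all genes). ReAC had the highest group mean for 21 of the 36 genes, where it did so for 20.4% of all genes. The difference between the second heat response (ReAC minus DeAC) and the first (AC2d minus control) passed for 0 of the 36 in limma, beside 0.3% of all genes. At an unadjusted p under 0.05 this difference was positive for 2 and negative for 2, beside 5% and 3.22% of all genes.

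**Figure D2:**
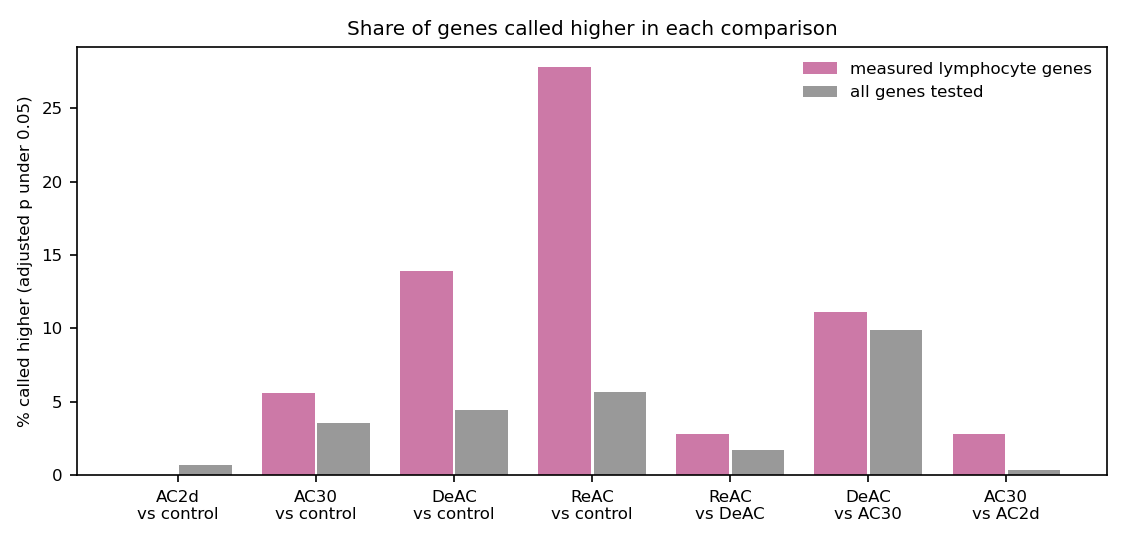
Percentage of genes called higher (adjusted p under 0.05) among the 36 measured lymphocyte genes (pink) and among all 14324 genes (grey) in 7 comparisons. The shares stand furthest apart in ReAC against control (27.8% and 5.63%) and are close together in DeAC against AC30 (11.1% and 9.85%).

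All 4 chains of the CD3 and CD247 complex were measured, and Cd3g, which encodes the gamma chain, changed the most. The log2 signals of Cd3g along the stages were 4.11 and 4.02 in control, 4.04 and 3.88 in AC2d, 4.41 and 4.76 in AC30, 4.35 and 4.44 in DeAC, and 4.86 and 4.92 in ReAC. The pools of the 3 later stages all lay above those of control and AC2d, and the ReAC pools above all others. Cd3g rose by 0.83 ± 0.12 in ReAC against control (1.77-fold, adjusted p = 0.000603), and by 0.78 to 0.87 with any array left out, passing each time. It rose by 0.50 ± 0.12 in ReAC against DeAC (adjusted p = 0.0372), the 1 member that passed in that age-matched comparison (2.78%, beside 1.7% of all genes that rose). Leaving out any AC2d, DeAC or ReAC pool removed that call (6 of 10 such fits), with an adjusted p of up to 0.219. Atrial genes rose in the same comparison (6 of 6 measured), and their part in the result was not tested. Cd3g also rose by 0.52 ± 0.12 in AC30 against control (adjusted p = 0.0169, up to 0.119 without AC30 replicate 2 or control replicate 2). In AC30 against AC2d it rose by 0.62 ± 0.12 (adjusted p = 0.0337, 1 of 36 members, or 2.78%, beside 0.328% of all genes that rose), a call lost in 7 of the 10 fits without an array, those without an AC2d, DeAC or ReAC pool or AC30 replicate 2.

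Cd3e, the epsilon chain gene, had 4.62 and 4.49 in control, 4.52 and 4.60 in AC2d, 4.81 and 4.84 in AC30, 4.73 and 4.79 in DeAC, and 4.89 and 5.15 in ReAC. It showed the same split between stages, with a smaller step, and rose by 0.46 ± 0.11 in ReAC against control (adjusted p = 0.0193, up to 0.191 without ReAC replicate 2 or control replicate 2). Cd247, the zeta chain gene, had 5.65 and 5.89 in control, 5.87 and 5.93 in AC2d, 6.0 and 5.70 in AC30, 6.21 and 6.20 in DeAC, and 5.92 and 6.02 in ReAC. Its DeAC pools were the highest of all 10. It rose by 0.44 ± 0.13 in DeAC against control (adjusted p = 0.0491), and 7 of the 10 fits without an array lost it, those without an AC2d, DeAC or ReAC pool or control replicate 1. Cd3d, the delta chain gene, did not pass in any comparison. It had 4.36 and 4.24 in control, 4.45 and 3.98 in AC2d, 4.33 and 4.64 in AC30, 4.30 and 4.27 in DeAC, and 4.58 and 4.52 in ReAC, so that the AC2d and AC30 pools spread across most of the range. Its change in ReAC against control was 0.25 (adjusted p = 0.326).

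The promoters of Cd3g and Cd3d, neighbouring genes on opposite strands, are shown with those of Cd28 and Nkg7, which are described below, because Cd3d passed in no comparison while the other 3 rose in ReAC against control. Windows of 250 bases before to 50 after the start came from RefSeq (GRCr8) for 24 of the 36 measured genes. Capitals mark the core ETS motif AGGAAG and the core RUNX motif TGTGGT on either strand, motifs of factor families that act in lymphocytes. Cd3g and Cd3d each held 1 ETS match and 0 RUNX matches, Cd28 held 0 and 2, and Nkg7 held 1 and 1. The ETS letters were found for 14 of the 24 genes and in 34.5% of 33469 rat promoters of the same length. The RUNX letters were found for 11 of the 24 genes and in 17.3% of all promoters. The 24 were counted by gene and the 33469 by promoter, so these shares have unlike units. Of the 9 genes among the 24 that passed in any of the 8 comparisons (the F test not counted), 5 held the ETS letters and 5 the RUNX letters. The windows are Cd3g at chr8:54183869-54184168 (minus strand), Cd3d at chr8:54185269-54185568 (plus), Cd28 at chr9:69660066-69660365 (plus) and Nkg7 at chr1:102981247-102981546 (plus).
Cd3g: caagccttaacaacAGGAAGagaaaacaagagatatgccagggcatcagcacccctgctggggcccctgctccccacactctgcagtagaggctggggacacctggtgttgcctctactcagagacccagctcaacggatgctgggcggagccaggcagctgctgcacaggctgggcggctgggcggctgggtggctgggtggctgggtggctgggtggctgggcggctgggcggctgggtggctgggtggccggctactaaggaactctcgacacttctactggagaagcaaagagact
Cd3d: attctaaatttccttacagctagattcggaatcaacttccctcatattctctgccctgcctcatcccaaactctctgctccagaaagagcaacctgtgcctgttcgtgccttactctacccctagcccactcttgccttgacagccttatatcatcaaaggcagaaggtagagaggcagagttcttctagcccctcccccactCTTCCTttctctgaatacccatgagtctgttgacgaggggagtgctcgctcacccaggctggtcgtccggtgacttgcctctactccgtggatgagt
Cd28: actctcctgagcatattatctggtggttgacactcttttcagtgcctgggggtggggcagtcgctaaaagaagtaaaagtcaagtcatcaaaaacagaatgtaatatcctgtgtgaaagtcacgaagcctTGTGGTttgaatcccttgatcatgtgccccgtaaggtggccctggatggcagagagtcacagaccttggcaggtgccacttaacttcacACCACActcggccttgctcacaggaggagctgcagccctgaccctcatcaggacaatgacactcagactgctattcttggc
Nkg7: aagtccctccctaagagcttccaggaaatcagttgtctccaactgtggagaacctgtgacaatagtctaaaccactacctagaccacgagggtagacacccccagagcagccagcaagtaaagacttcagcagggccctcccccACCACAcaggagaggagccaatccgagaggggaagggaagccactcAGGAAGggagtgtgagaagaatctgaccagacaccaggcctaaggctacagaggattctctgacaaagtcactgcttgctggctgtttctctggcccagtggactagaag

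Among 9 measured coreceptor and surface genes, 4 rose in ReAC against control and 0 fell, where 5.63% of all genes rose and 5.28% fell. The count of 4 was 2 without ReAC replicate 1 and 0 without ReAC replicate 2. Cd28, the costimulatory receptor gene, had 5.39 and 5.26 in control, 5.36 and 5.23 in AC2d, 5.33 and 5.54 in AC30, 5.72 and 5.81 in DeAC, and 5.85 and 6.16 in ReAC. All DeAC and ReAC pools lay above the other 6. Cd28 rose by 0.68 ± 0.13 in ReAC against control (1.60-fold, adjusted p = 0.00434, but 0.0752 without ReAC replicate 2), and its change in DeAC against control was 0.44 (adjusted p = 0.0554). Cd8a, a chain of the coreceptor of cytotoxic T cells, had 5.47 and 5.25 in control, 5.37 and 5.30 in AC2d, 5.61 and 5.82 in AC30, 5.61 and 5.95 in DeAC, and 5.96 and 5.95 in ReAC. Its AC30, DeAC and ReAC pools all lay above those of control and AC2d. It rose by 0.59 ± 0.14 in ReAC against control (adjusted p = 0.0125, up to 0.0878 without either ReAC pool or control replicate 2). The change of the partner chain gene Cd8b in the same comparison was 0.29 (adjusted p = 0.161).

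Cd2, an adhesion molecule of T and NK cells, had 5.50 and 5.52 in control, 5.72 and 5.63 in AC2d, 5.57 and 5.74 in AC30, 5.79 and 5.97 in DeAC, and 6.03 and 6.11 in ReAC. Every pool of a heat-history group lay above both control pools. Cd2 rose by 0.56 ± 0.11 in ReAC against control (adjusted p = 0.00595, but 0.068 without ReAC replicate 2), and its change in DeAC against control was 0.37 (adjusted p = 0.0648). Cd4, the coreceptor of helper T cells, which rat macrophages carry as well, had 7.88 and 7.99 in control, 7.98 and 7.86 in AC2d, 7.98 and 7.83 in AC30, 8.15 and 8.27 in DeAC, and 8.25 and 8.24 in ReAC. The pools of control, AC2d and AC30 overlapped, and the DeAC and ReAC pools lay above them. Cd4 rose by 0.31 ± 0.08 in ReAC against control (adjusted p = 0.0238, up to 0.139 without either ReAC pool or control replicate 1). It also rose by 0.31 ± 0.08 in DeAC against AC30 (adjusted p = 0.0156, up to 0.138 without AC30 replicate 2 or DeAC replicate 2).

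Thy1 went the other way, although it did not pass. In the rat it marks thymocytes and newly made T cells, and fibroblasts and neurons make it too. Thy1 had 7.82 and 6.62 in control, 6.89 and 6.89 in AC2d, 6.84 and 6.76 in AC30, 6.33 and 6.57 in DeAC, and 6.36 and 6.42 in ReAC. Control replicate 1 stood well above the other 9 pools, and the ReAC and DeAC pools were the lowest. The change in ReAC against control was -0.83 ± 0.25 (adjusted p = 0.0519), but -0.23 (adjusted p = 0.303) without control replicate 1 and -1.43 (adjusted p = 2.49e-06) without control replicate 2. Cd27, a costimulatory receptor gene, had 5.36 and 5.55 in control, 5.33 and 5.40 in AC2d, 5.69 and 5.75 in AC30, 5.46 and 5.48 in DeAC, and 5.70 and 5.74 in ReAC. Its AC30 and ReAC pools lay above those of the other 3 groups, with changes of 0.27 in AC30 (adjusted p = 0.174) and 0.27 in ReAC (adjusted p = 0.145) against control. Cd5 and Cd6, scavenger-receptor-like surface molecules of T cells, did not pass, with changes of -0.13 and 0.04 in ReAC against control.

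**Figure D3:**
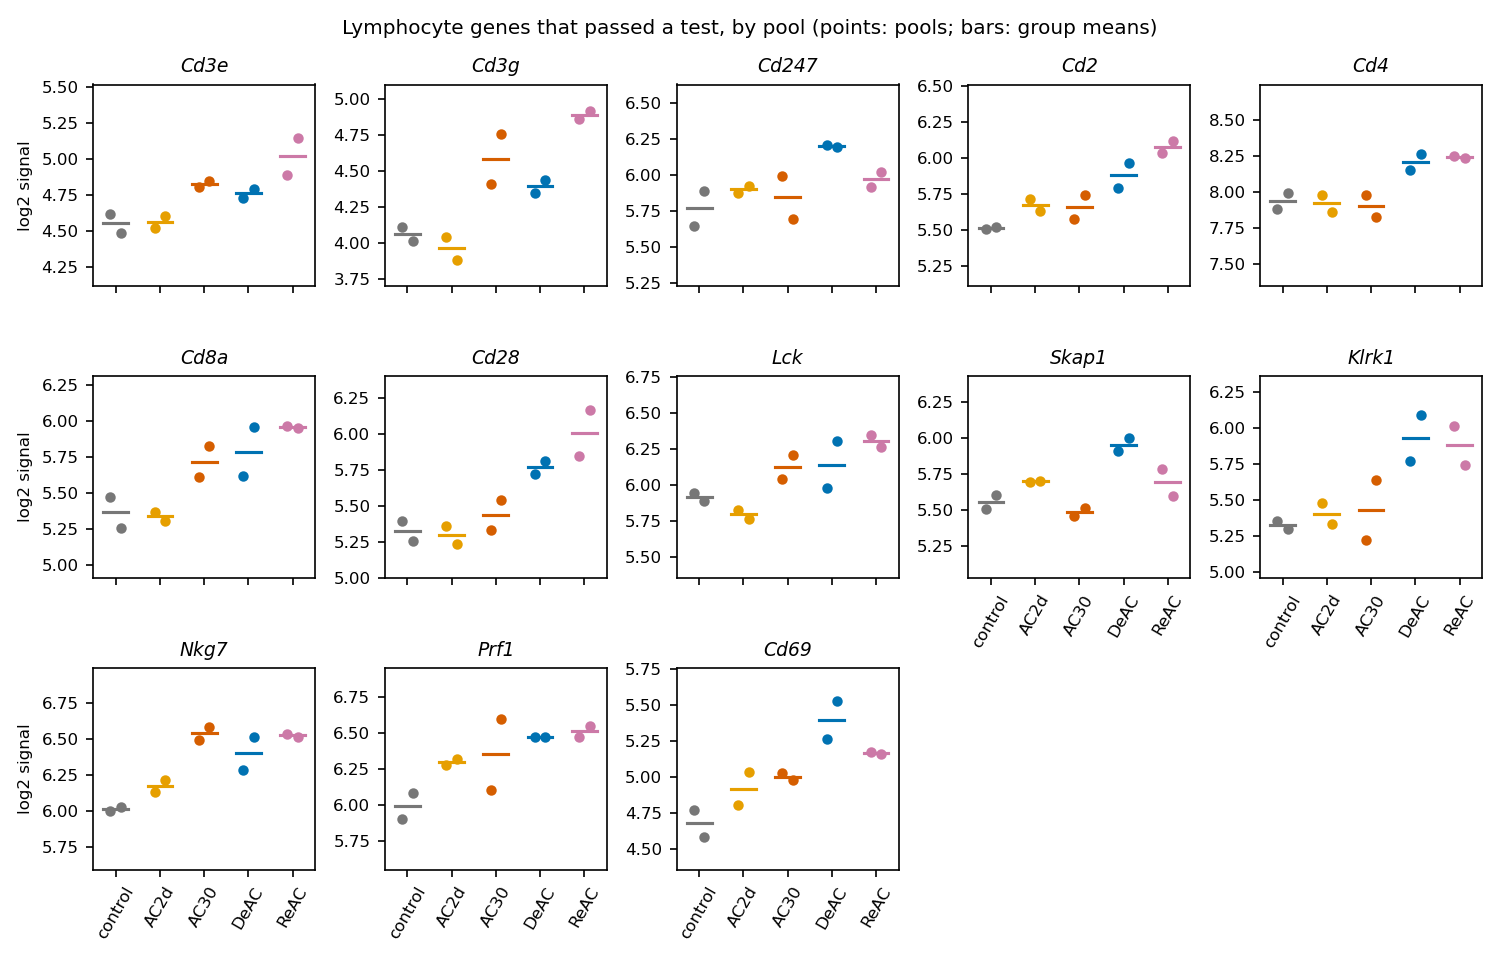
Log2 signal of the 13 lymphocyte genes that passed the F test or a comparison, in each pool (points) and as group means (bars), with stages from control to ReAC on the x axis. The panels have different levels on the y axis. Cd3g has its highest pools in ReAC (4.86 and 4.92), while Cd69 and Skap1 have theirs in DeAC.

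Of 6 genes acting next to the receptor, 0 passed in ReAC against control in limma, though Lck and Skap1 passed the F test (adjusted p = 0.0407 and 0.0435). At an unadjusted p of 0.05, 1 was higher and 0 lower, beside 12.3% and 12.2% of all genes. Lck, the kinase that starts the receptor's signal, had 5.94 and 5.88 in control, 5.83 and 5.76 in AC2d, 6.04 and 6.21 in AC30, 5.98 and 6.30 in DeAC, and 6.34 and 6.27 in ReAC. Every pool of AC30, DeAC and ReAC lay above the control pools and both AC2d pools below them, and the change in ReAC against control was 0.39 ± 0.12 (adjusted p = 0.0578). Skap1, an adaptor that links the receptor to integrin adhesion, had 5.51 and 5.60 in control, 5.70 and 5.70 in AC2d, 5.45 and 5.51 in AC30, 5.91 and 6.0 in DeAC, and 5.78 and 5.60 in ReAC. Its DeAC pools were the highest of all. Skap1 rose by 0.47 ± 0.11 in DeAC against AC30 (adjusted p = 0.00924, up to 0.0701 without AC30 replicate 1 or DeAC replicate 2). It rose by 0.40 ± 0.11 in DeAC against control (adjusted p = 0.0421), which 8 of the 10 fits without an array lost, all but those without an AC30 pool. In DeAC against AC30 4 of the 36 genes rose (11.1%, beside 9.85% of all genes), a share near the background. In the same comparison all 6 atrial and all 6 fibroblast genes measured fell, and 3 of 7 fat genes did. Of all genes 7.45% fell, and the part of these lists in the lymphocyte values was not tested.

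The adaptor gene Lat had 5.30 and 5.18 in control, 5.38 and 5.17 in AC2d, 5.38 and 5.39 in AC30, 5.23 and 5.30 in DeAC, and 5.63 and 5.36 in ReAC. Sh2d1a, the adaptor gene of SLAM receptors, had 4.21 and 4.23 in control, 4.12 and 4.24 in AC2d, 4.24 and 4.39 in AC30, 4.34 and 4.27 in DeAC, and 4.41 and 4.38 in ReAC. Neither passed. Both ReAC pools lay above both control pools for Sh2d1a and for Lat, with changes of 0.18 (adjusted p = 0.298) and 0.25 (adjusted p = 0.239). Zap70, the kinase that binds the phosphorylated chains, and Ptprcap, a partner of the phosphatase CD45, changed by 0.08 and -0.08 in ReAC against control.

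Of 7 NK and cytotoxic genes measured, 1 rose in AC30 against control (Nkg7), 2 in DeAC (Klrk1 and Nkg7) and 3 in ReAC (Klrk1, Nkg7 and Prf1), and 0 fell, where 3.57%, 4.45% and 5.63% of all genes rose. The count of 3 was 0 without either ReAC pool and 1 without control replicate 1, and the count of 2 was 0 without either AC2d pool, DeAC replicate 2 or control replicate 1. Nkg7, a granule protein gene of NK and cytotoxic T cells, had 6.0 and 6.03 in control, 6.14 and 6.22 in AC2d, 6.50 and 6.59 in AC30, 6.29 and 6.51 in DeAC, and 6.54 and 6.52 in ReAC. Every pool of a heat-history group was above both control pools. Nkg7 rose by 0.53 ± 0.11 in AC30 against control (1.44-fold, adjusted p = 0.00748) and passed with any array left out, with a change of 0.48 to 0.57. It rose by 0.51 ± 0.11 in ReAC (adjusted p = 0.00693, up to 0.0628 without either ReAC pool). It rose by 0.39 ± 0.11 in DeAC (adjusted p = 0.0391), which 7 of the 10 fits without an array lost, all but those without an AC30 pool or DeAC replicate 1.

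Prf1, the perforin gene, had 5.91 and 6.09 in control, 6.28 and 6.32 in AC2d, 6.11 and 6.60 in AC30, 6.47 and 6.48 in DeAC, and 6.48 and 6.55 in ReAC. Again the control pools were the lowest. Prf1 rose by 0.52 ± 0.14 in ReAC against control (adjusted p = 0.028, up to 0.162 without either ReAC pool or control replicate 1), and its change in DeAC was 0.48 (adjusted p = 0.0501). Klrk1, which encodes the activating receptor NKG2D, had 5.36 and 5.30 in control, 5.48 and 5.33 in AC2d, 5.23 and 5.64 in AC30, 5.77 and 6.09 in DeAC, and 6.02 and 5.74 in ReAC. Its DeAC and ReAC pools lay above the other 6. Klrk1 rose by 0.60 ± 0.16 in DeAC against control (adjusted p = 0.0306, up to 0.244 when an AC2d pool, DeAC replicate 2 or a control pool was left out) and by 0.55 ± 0.16 in ReAC (adjusted p = 0.0375, up to 0.279 when an AC2d, ReAC or control pool was left out). In DeAC against AC30 it rose by 0.50 ± 0.16 (adjusted p = 0.0427, up to 0.355 without an AC2d pool, AC30 replicate 1 or DeAC replicate 2).

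Gzma, Gzmb and Gzmk, the granzyme genes among the 36, did not pass in any comparison. Gzmk had 4.44 and 4.62 in control, 4.44 and 4.46 in AC2d, 4.54 and 4.57 in AC30, 4.72 and 4.65 in DeAC, and 4.86 and 4.72 in ReAC. Its ReAC and DeAC pools lay above the rest, by a change of 0.26 in ReAC against control (adjusted p = 0.151). Gzma and Gzmb changed by 0.03 and 0.06 in ReAC against control. Klrd1, the CD94 receptor gene, had 5.53 and 5.54 in control, 5.68 and 5.41 in AC2d, 5.65 and 5.96 in AC30, 5.65 and 6.08 in DeAC, and 5.63 and 5.89 in ReAC, with wide gaps between the pools of each heat-history group. Its change in ReAC against control was 0.23 (adjusted p = 0.428).

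Further NK genes, not among the 36, were set beside these. They were listed from general knowledge but with earlier results of these data known, so they are not an independent check. Of 14 measured, 1 rose in AC30 against control (7.14%, beside 3.57% of all genes), 3 in DeAC (21.4%, beside 4.45%) and 6 in ReAC (42.9%, beside 5.63%), and 0 fell. Their median change in ReAC was 0.36 beside -0.01 for all genes. The cysteine protease gene Ctsw rose by 0.51 ± 0.11 (adjusted p = 0.00721), the lectin-like receptor gene Klrb1c by 0.52 ± 0.12 (adjusted p = 0.0135) and the adhesion receptor gene Cd226 by 0.51 ± 0.13 (adjusted p = 0.0197) in ReAC against control. In DeAC against control the granzyme gene Gzmc rose by 0.79 ± 0.15 (adjusted p = 0.00549), Klrb1c by 0.61 ± 0.12 (adjusted p = 0.00723) and the activating receptor gene Ncr1 by 0.45 ± 0.11 (adjusted p = 0.0233). The count of 6 was 0 without ReAC replicate 1, 1 without ReAC replicate 2 and 3 without control replicate 1. In DeAC the 3 became 1 without DeAC replicate 2, and the count of 1 was 0 without either AC30 pool or control replicate 1 and 2 without either DeAC pool.

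Activation and cytokine genes were represented by Cd69 and Ltb. Cd69, an early activation marker that also marks tissue-resident lymphocytes, had 4.77 and 4.59 in control, 4.80 and 5.03 in AC2d, 5.03 and 4.98 in AC30, 5.27 and 5.53 in DeAC, and 5.17 and 5.16 in ReAC. All heat-history pools lay above both control pools, with DeAC the highest. Cd69 rose by 0.72 ± 0.13 in DeAC against control (1.65-fold, adjusted p = 0.00366) and passed with any array left out, with a change of 0.59 to 0.85. It rose by 0.49 ± 0.13 in ReAC against control (adjusted p = 0.0242, up to 0.148 without either ReAC pool or control replicate 2). It rose by 0.39 ± 0.13 in DeAC against AC30 (adjusted p = 0.0465), which 7 of the 10 fits without an array lost, all but those without a control pool or DeAC replicate 1. Ltb, the lymphotoxin beta gene that organises lymphoid tissue, had 5.13 and 5.18 in control, 5.24 and 5.39 in AC2d, 5.55 and 5.21 in AC30, 5.54 and 5.35 in DeAC, and 5.46 and 5.62 in ReAC. Its control pools were the lowest, but its change in ReAC against control did not pass (0.39, adjusted p = 0.0819).

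The 5 genes that rose in DeAC against control were Cd247, Skap1, Klrk1, Nkg7 and Cd69. That count was 1 without either AC2d pool, DeAC replicate 2 or control replicate 1, and 2 without either ReAC pool. It was 8 without either AC30 pool and 8 when the arrays were scaled to a common median. Cd69 was the gene that passed in each of these fits that left out an array. In the same comparison all 6 measured atrial genes fell, and their part in the lymphocyte changes was not tested.

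Of 4 B cell genes measured, 0 passed in any of the 8 comparisons in limma, and 0 passed the F test. At an unadjusted p of 0.05, 1 was higher in AC30 against control and 0 in ReAC against control, beside 8.89% and 12.3% of all genes. Cd79b, a signalling chain of the B cell receptor, had 5.93 and 6.10 in control, 6.22 and 6.06 in AC2d, 6.10 and 5.91 in AC30, 5.85 and 5.76 in DeAC, and 5.82 and 5.75 in ReAC. Its DeAC and ReAC pools were the lowest, with a change of -0.23 ± 0.12 in ReAC against control (adjusted p = 0.246). Cd37, a tetraspanin gene of B cells and other leukocytes, had 7.0 and 6.92 in control, 6.99 and 6.81 in AC2d, 6.99 and 7.23 in AC30, 6.89 and 7.06 in DeAC, and 7.13 and 7.16 in ReAC. The ReAC pools lay above the control pools, by 0.19 (adjusted p = 0.3), and between the AC30 pools. Ms4a1, which encodes CD20, and the kinase gene Blk each changed by 0.12 in ReAC against control. Of 17 further B cell genes 0 rose and 2 fell in ReAC against control, namely Fcer2, the low-affinity IgE receptor gene (-0.73 ± 0.14, adjusted p = 0.00325), and Ebf1, a B cell factor that fat and stromal cells also make (-0.26 ± 0.06, adjusted p = 0.0194). That count was 1 without either ReAC pool or control replicate 1. Of all genes, 5.63% rose and 5.28% fell in ReAC against control. At an unadjusted p of 0.05, 2 of the 17 were higher in DeAC and 2 in ReAC against control. These counts are near background, as 12.3% of all genes were higher in each. Fcer2 had 6.78 and 7.18 in control, 6.33 and 6.45 in AC2d, and 6.32 and 6.64 in AC30. It had 7.17 and 7.14 in DeAC and 6.19 and 6.30 in ReAC. Every AC2d, AC30 and ReAC pool lay below all control and DeAC pools. Fcer2 changed by -0.59 in the first heat response (AC2d minus control) and by -0.91 in the second (ReAC minus DeAC). Each of these age-matched comparisons had 1 lower call and 0 higher among the 17 genes. Of all genes, 1.86% fell in the first and 2.21% in the second. The lower call in the first did not hold in every fit without an array, while that in the second did. Blnk, an adaptor of the B cell receptor, and Btk, a kinase of B and myeloid cells, named here after their values were seen, changed by 0.33 (adjusted p = 0.159) and 0.34 (adjusted p = 0.152) in ReAC against control. Whether the B cell genes differ from the T and NK cell genes was not tested.

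Of the 4 transcription factor genes, 0 passed in limma in any comparison, with 1 higher in AC30 against AC2d at an unadjusted p of 0.05. Tbx21, the factor of type 1 helper and cytotoxic cells, had 5.49 and 5.72 in control, 5.50 and 5.30 in AC2d, 5.75 and 5.74 in AC30, 5.67 and 5.71 in DeAC, and 5.56 and 5.78 in ReAC. Ikzf1, the Ikaros gene, had 5.56 and 5.56 in control, 5.42 and 5.61 in AC2d, 5.51 and 5.67 in AC30, 5.66 and 5.67 in DeAC, and 5.71 and 5.76 in ReAC. The AC30 pools of Tbx21 lay above those of control, AC2d and DeAC, with a change of 0.35 in AC30 against AC2d (adjusted p = 0.261), while its DeAC and ReAC pools overlapped control. The ReAC and DeAC pools of Ikzf1 lay above its control pools. Gata3, a factor of T helper cells, and Ikzf3, an Ikaros relative, changed by -0.11 and 0.17 in ReAC against control. Of 20 further genes of T cell receptor signalling 0 passed in that comparison in limma. At an unadjusted p of 0.05, 3 were higher and 2 lower, near the 12.3% and 12.2% of all genes. Their median change was 0.12, beside -0.01 over all genes. Of 14 further genes of T cell differentiation, Stat4, which transmits interleukin signals, rose by 0.49 ± 0.15 (adjusted p = 0.0456), and Ets1 fell by 0.28 (adjusted p = 0.00683). Of all genes, 5.63% rose and 5.28% fell in ReAC against control. In 8 of the 10 fits without an array 0 of the 14 rose (in limma, all but the fits without an AC30 pool), and 0 fell without ReAC replicate 2 or control replicate 2.

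The 11 genes given above only by their changes, or not yet named, passed in no comparison, and their smallest adjusted p was 0.161. Their changes against control lay between -0.18 and 0.29 over the 4 heat-history groups, and 8 of the 11 were among the 40% of genes with the lowest signal.

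Other blood and immune cell markers moved in part with these genes. Of 14 macrophage genes, 11 rose and 0 fell in ReAC against control and 6 rose in DeAC, with the lysozyme gene Lyz2 at 0.86 ± 0.08 (adjusted p = 9.57e-06) and the class II gene RT1-Da at 0.84 ± 0.07 (adjusted p = 3.2e-06) in ReAC. Of all genes, 5.63% rose in ReAC and 4.45% in DeAC against control. The mean log2 signal of the macrophage list was 8.15 and 8.20 in the ReAC pools against 7.63 and 7.73 in the control pools. Of 12 genes of all leukocytes 3 rose and 2 fell in DeAC against control, and 6 rose and 1 fell in ReAC. In ReAC Cd53 rose by 1.14 (adjusted p = 6.87e-05), Coro1a by 0.61 (adjusted p = 0.000142) and Ptprc, which encodes CD45, by 0.56 ± 0.09 (adjusted p = 0.00159). The lowest change of the list in ReAC was -0.25, for Cd48, with 10.60 and 10.61 in control and 10.37 and 10.34 in ReAC. Of 5 erythroid genes 4 fell in ReAC against control (2 without ReAC replicate 2), where 5.28% of all genes fell, and their list mean was 7.15 and 7.13 in the ReAC pools against 7.52 and 7.54 in the control pools. Of 9 neutrophil genes 0 passed in this comparison in limma. At an unadjusted p of 0.05, 1 was higher, beside 12.3% of all genes. Their list mean was 4.84 and 4.79 in ReAC against 4.81 and 4.82 in control. The 5 measured thymocyte genes showed 0 calls in ReAC against control in limma, and Rag1, the recombinase gene of thymocytes and the 1 with an unadjusted p under 0.05, changed by -0.40 (adjusted p = 0.088).

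**Figure D4:**
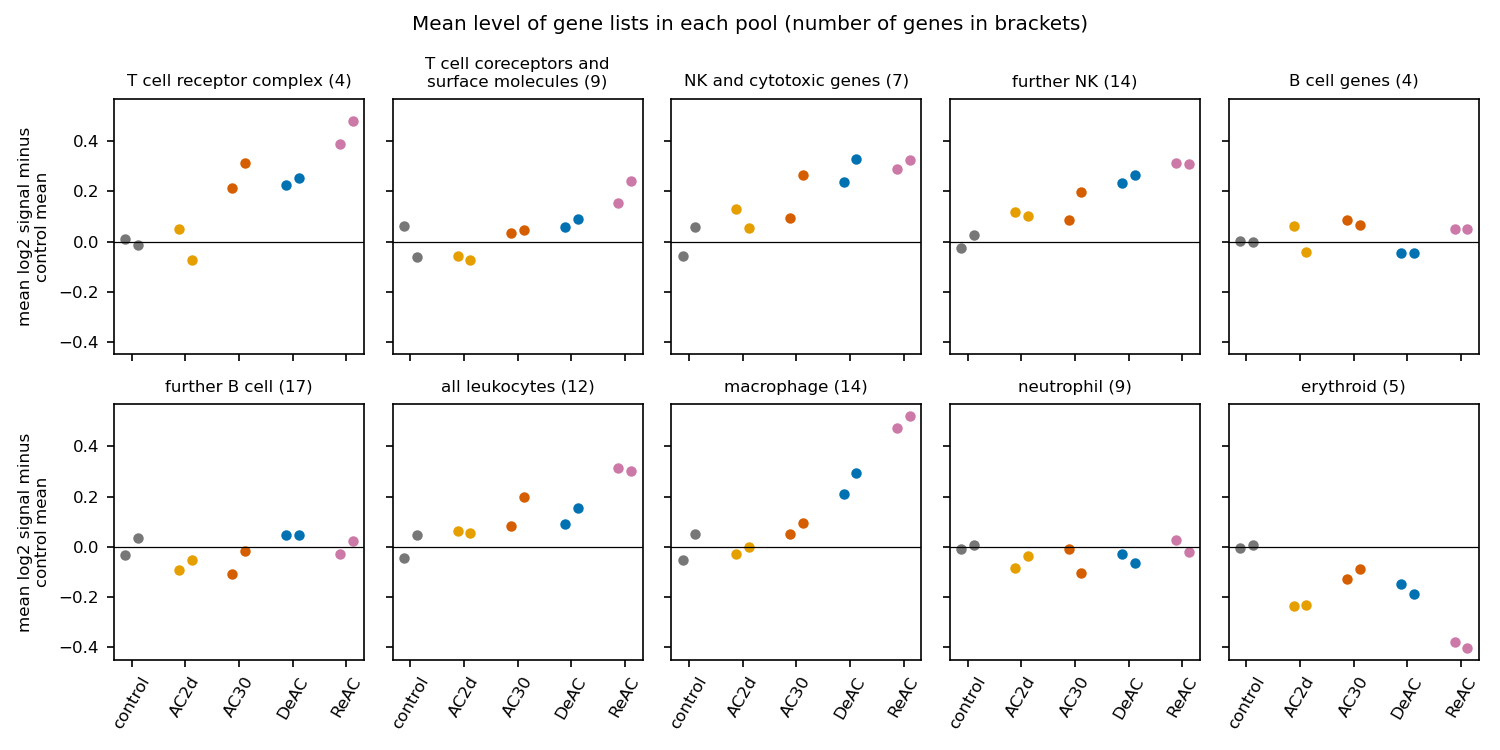
Mean log2 signal of gene lists in each pool minus the mean of the control pools (y axis), by stage (x axis), with the number of genes in brackets. The lists of the T cell receptor complex, further NK genes and macrophages have their highest pools in ReAC, while the B cell lists and the neutrophil list stay near the control level and the erythroid list is lowest in ReAC.

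Of 12 genes for lymphocyte-attracting chemokines and venule molecules, 0 rose and 1 fell in AC2d against control, and 3 rose and 1 fell in AC30. In DeAC 2 rose and 1 fell, and in ReAC 2 rose and 1 fell. Of all genes, 0.663%, 3.57%, 4.45% and 5.63% rose in AC2d, AC30, DeAC and ReAC against control. In the same order 1.86%, 4.96%, 3.77% and 5.28% of all genes fell. The 2 that rose were 1 in DeAC without DeAC replicate 2, and 1 in ReAC without either AC2d pool, either DeAC pool, ReAC replicate 2 or control replicate 2. Ccl5, which T and NK cells make themselves, rose by 0.52 ± 0.09 in AC30 (adjusted p = 0.00264), 0.45 ± 0.09 in DeAC (adjusted p = 0.00639) and 0.58 ± 0.09 in ReAC (adjusted p = 0.000754) against control. Cxcl11, a ligand of the receptor Cxcr3, rose by 0.75 ± 0.14 in DeAC (adjusted p = 0.00582) and 0.52 ± 0.14 in ReAC (adjusted p = 0.032) against control, while its changes in AC2d and AC30 were -0.39 (adjusted p = 0.211) and -0.44 (adjusted p = 0.0762). Cxcl12 fell by 0.49 in ReAC against control (adjusted p = 0.000265). Cxcl13, which draws B cells into lymphoid follicles, rose by 2.05 ± 0.14 in AC30 against control (4.15-fold, adjusted p = 4.85e-06), and its change in ReAC was 0.39 (adjusted p = 0.102).

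The authors' deposited table of signed fold changes listed 4 of the 36 genes among its 651 probe sets. It gave Cd3g 1.71-fold higher in ReAC than in control, Cd28 1.53-fold higher in ReAC and Cd69 1.57-fold higher in DeAC. For Thy1 the authors' deposited table had -1.81 in ReAC, the sign marking a lower level.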

How the data were processed

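Total RNA of 10 left ventricle pools was labelled with biotin by the standard Affymetrix protocol, per the labels. The authors deposited log2 signals for 27342 probe sets, and the summarisation method is not stated in the labels. The authors also deposited a table of signed fold changes (a score, below 0 where the level was lower). Columns not used numbered 0. Symbols came from the platform annotation, updated by gene identifier with RefSeq (GRCr8): 15097 probe sets had 1 symbol, 323 several and 11922 none, and 15067 were found in RefSeq. The median deposited signal per array was 5.95 to 6.10, and the arrays were quantile normalized. limma 3.58.1 in R 4.3.3 fitted a mean per group on all 10 arrays (lmFit, eBayes with trend, two-sided, 5 residual and 8.3 prior degrees of freedom) and was tested on simulated data. Arrays do not count molecules, so their number limits the precision. The pools are biological pools by their titles. The genes and lists were chosen with earlier results of these data known. Pool values are given for every gene that passed a test and for up to 2 others per role, those with the smallest F test p. From each other list up to 3 genes were picked for each comparison described, so some lists have more genes named. Blnk, Btk and Cd48 were named beyond that rule, after their values were seen.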

Additional observations from a re-analysis of the deposited data

How the results depend on the processing

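Wherever the gene was still tested, the 23 single-gene calls kept their direction under all alternatives. The number of lymphocyte genes passing in ReAC against control (10) was 4 (3 higher, 1 lower) without the 40% dimmest genes, which removes 27 of the 36, and 1 to 11 with single arrays left out. In DeAC against control (5) it was 3 with the values as deposited, 8 with median scaling, 3 in limma without the trend, 3 without the dimmest genes, 1 with its 2 groups fitted alone, and 1 to 8 with arrays left out. In AC30 against control (2) it was 1 without the dimmest genes, 0 with the 2 groups alone (8 higher at an unadjusted p under 0.05 in limma with all groups) and 1 to 3 with arrays left out. In DeAC against AC30 (4) it was 2 as deposited, 1 without the dimmest genes, 2 with the groups alone and 0 to 6 with arrays left out. In ReAC against DeAC (1) it was 0 with median scaling, without the trend or without the dimmest genes, and 0 to 1 with arrays left out. In AC30 against AC2d (1) it was 0 without the trend or without the dimmest genes, and 0 to 1 with arrays left out. In AC2d against control (0) and in the difference of the heat responses (0) it was 0 to 1 with arrays left out, and in the F test (11) it was 3 without the dimmest genes and 6 to 12 with arrays left out. A lone pool was assumed to vary like the other groups. A replicate block changed none of these counts by over 1.5 times, for example 1598 against 1564 genes in all for ReAC against control, and of the single-gene calls it lost 2, Cd247 in DeAC against control and Cd69 in DeAC against AC30. Same-numbered pools deviated together by a correlation of -0.08 to 0.21. With 2 pools per group these correlations cannot exclude a pairing by number, and the main fit treated the pools as unpaired.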
